A study of Saccharomyces cerevisiae with 6 samples.

Results

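The genes described are 36 early, middle and late meiosis and sporulation genes of the budding yeast Saccharomyces cerevisiae, out of 5449 genes of this yeast measured on the same arrays. A gene was taken when its symbol or a synonym was listed for a probe set of the Affymetrix Yeast Genome 2.0 Array, where a probe set is the group of short probes that reads 1 transcript. All 36 genes had exactly 1 probe set. Total RNA was compared between cells that overexpressed glutathione S-transferase alone (GST) and cells that overexpressed Med3 with this tag (labelled GST-med3, called Med3-GST here), with 3 arrays in each group, lettered A, B and C. Both proteins were made for 48 h from a plasmid with the GAL1/10 promoter, which galactose switches on, so that all 6 cultures were grown on galactose without uracil and both groups carried a GST-tagged protein in excess. Med3, listed on the array as PGD1, is a subunit of the tail of Mediator, the complex that links DNA-bound activators to RNA polymerase II. Its probe set had a mean log2 signal of 8.11 with GST and 11.81 with Med3-GST, higher in all 3 arrays labelled for it. The study's strains derive from BY4741, a haploid of mating type a, while the labels of the arrays name no genotype. The labels call the cells only yeast cells. The study calls the 3 cultures of each group biological replicates.

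Meiosis and spore formation in this yeast are normally a program of a/alpha diploid cells that starve for nitrogen on a non-fermentable carbon source. The activator Ime1 starts the early genes, which Ume6 otherwise holds repressed, and these build the chromosome axis, break the DNA and pair the homologous chromosomes. Ndt80 then switches on the middle genes for the meiotic divisions and the prospore membrane, and the mid-late and late genes build the spore wall with its chitosan and dityrosine layers. In haploid cells in rich or synthetic medium most of these genes are known to be silent or nearly so.

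The mating type was checked with genes of each cell type, using the Schizosaccharomyces pombe probe sets of the array as the level of a transcript that was not in the cultures. The median of 1746 such probe sets lay at a log2 signal of 6.05 in cells with GST and 6.04 with Med3-GST, and their 95th percentile at 7.49 in both groups. All 7 a-cell genes were above that percentile in both groups, and MFA1, which encodes the a-factor pheromone, had mean log2 signals of 11.49 with GST and 12.19 with Med3-GST. The alpha-factor genes MF(ALPHA)1 and MF(ALPHA)2 were under it in both groups, at 6.64 and 6.61 with GST and 6.89 and 6.90 with Med3-GST. The other alpha-cell genes of the list were above it in both groups, with STE3 at 8.41 and 7.95 and SAG1 at 8.76 and 9.13. All 5 genes that a/alpha diploids are known to repress were above it as well. Of the a-cell genes 5 were higher with Med3-GST and 2 did not pass the test described below. Of the alpha-cell genes 3 were higher and 1 lower, and of the genes repressed in diploids 3 were higher and 2 lower. Among all probe sets 27.1% were higher and 47.8% lower. The part of the alpha-cell signals in the results below was not tested.

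The 36 genes were dim. The highest value of each gene over the 6 arrays was below the lowest of the array medians, which ran from 9.87 to 10.08. Their mean log2 signals ran from 5.82 to 9.04 with GST (median 7.55) and from 5.84 to 9.16 with Med3-GST (median 7.37). By the mean of all 6 arrays the brightest were NDT80, IME2 and UME6, and the dimmest were SAE3 and MEI5. With GST alone SPS100, at 8.92, was above IME2 and UME6. Means above the S. pombe 95th percentile were seen for 18 genes with GST and 17 with Med3-GST, of which 16 were above it in both groups and 17 genes in neither. RIM4 was above it with Med3-GST only, and SPR3 and SSP2 with GST only. At the S. pombe 90th percentile the counts were 26 and 25, and at its median 34 and 34, whereas no gene reached the 99th percentile of 9.21. Replicates of 1 group were close, with SDs from 0.01 to 0.10 in both groups (n = 3).

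**Figure D1:**
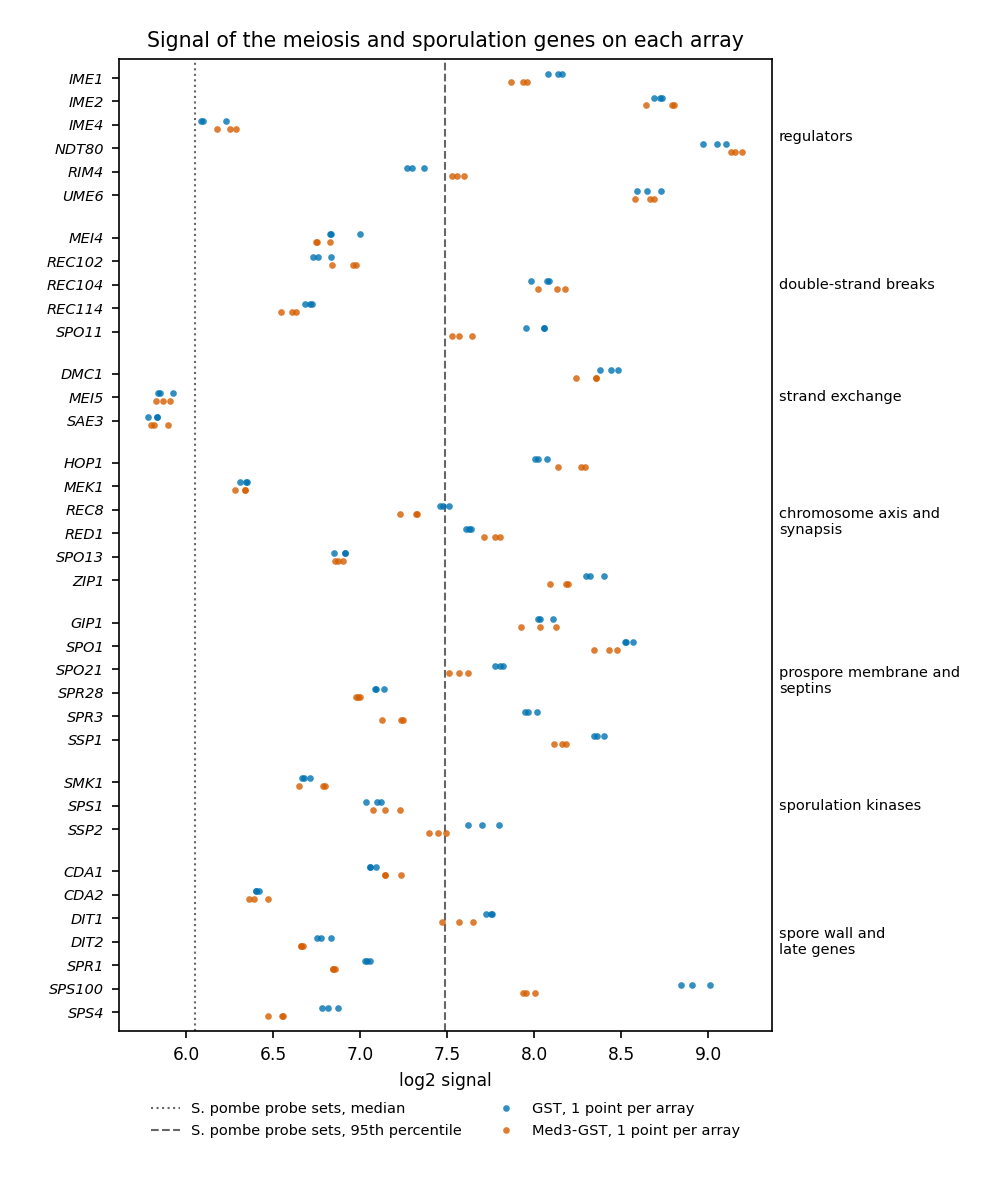
Log2 signal of each of the 36 genes on each of the 6 arrays (x axis), with genes in rows grouped by role, GST in blue and Med3-GST in orange. The dotted line is the S. pombe median (6.05) and the dashed line the S. pombe 95th percentile (7.49). SPS100, SPR3 and SPO11 have the widest gaps between the groups, and SAE3 and MEI5 lie left of the dotted line on all 6 arrays.

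Which of these genes differed between cells with Med3-GST and cells with GST was tested in limma over all 5498 S. cerevisiae probe sets, with Benjamini-Hochberg adjusted p under 0.05 as the threshold. With Med3-GST 18 of the 36 genes were lower, 6 were higher and 12 did not pass the test. That is 50% lower and 16.7% higher, against 47.8% lower and 27.1% higher among all probe sets tested. Among the 1462 probe sets within the same range of mean signal (5.83 to 9.10), 39.1% were lower and 29.1% higher. That set shares only the range and is brighter. With GST 1083 of the 1462 were above the S. pombe 95th percentile, against 18 of the 36 genes. The share lower was thus near that of all probe sets and above that of the signal range, and the share higher was below both. Neither difference was tested. Arrays of the groups did not overlap for 23 of the 36 genes, against 75% of all probe sets. In whole cultures, fewer cells that make a transcript and less of it per cell cannot be told apart.

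The differences of the 36 genes were small beside those of other genes. Their median size was 0.12 on the log2 scale, against 0.23 for all probe sets and 0.19 within the same signal range. Both of these sets held a larger share of probe sets above background, so the sizes do not compare genes of equal signal. A difference above 0.3 in size was seen for 3 of the 36 genes (8.33%), which were SPS100, SPR3 and SPO11, against 38.2% of all probe sets and 31.9% of those in the signal range. No gene of the 36 reached a difference of 1, which 101 probe sets of the array did. Their signed median was -0.07, close to the median of -0.08 over all probe sets.

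How many of the 36 genes passed as higher depended on the scaling of the arrays. Each array centred on its own median gave 15 genes higher and 12 lower, with a median difference of 0.03 for the 36 genes and 0.01 for all probe sets. Centring moved the differences of 18 of the called genes by more than 1.5 times, and those of SPS100, SPR3, SPO11, SPS4, RIM4 and HOP1 by less. The array-wide counts moved in the same way, from 1488 higher and 2629 lower to 2395 and 2293. Centring also lowered the median standard error from 0.05 to 0.024, so that smaller differences passed. It used the S. cerevisiae medians, whereas the S. pombe medians were nearly equal before it (6.05 and 6.04). Centring therefore raised the difference of every S. cerevisiae probe set by the same amount, also at background level. SAE3, below the S. pombe median in both groups, went from 0.02 to 0.12 and was then called higher. Centred counts of genes higher thus include genes at background. Subtracting the S. pombe median of each array moved the differences of 12 called genes by more than 1.5 times (SPR3, SPS4, SPR1, DIT2, CDA1, SSP2, SPR28, REC8, REC102, REC114, MEI4 and RIM4). Without replicate B of Med3-GST 10 genes were higher. The differences of the S. pombe probe sets ran from -0.13 to 0.23, with a 1st percentile of -0.10 and a 99th percentile of 0.11. The smallest S. cerevisiae difference past the test was 0.10, a size that 37 S. pombe probe sets (2.12%) reached.

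**Figure D2:**
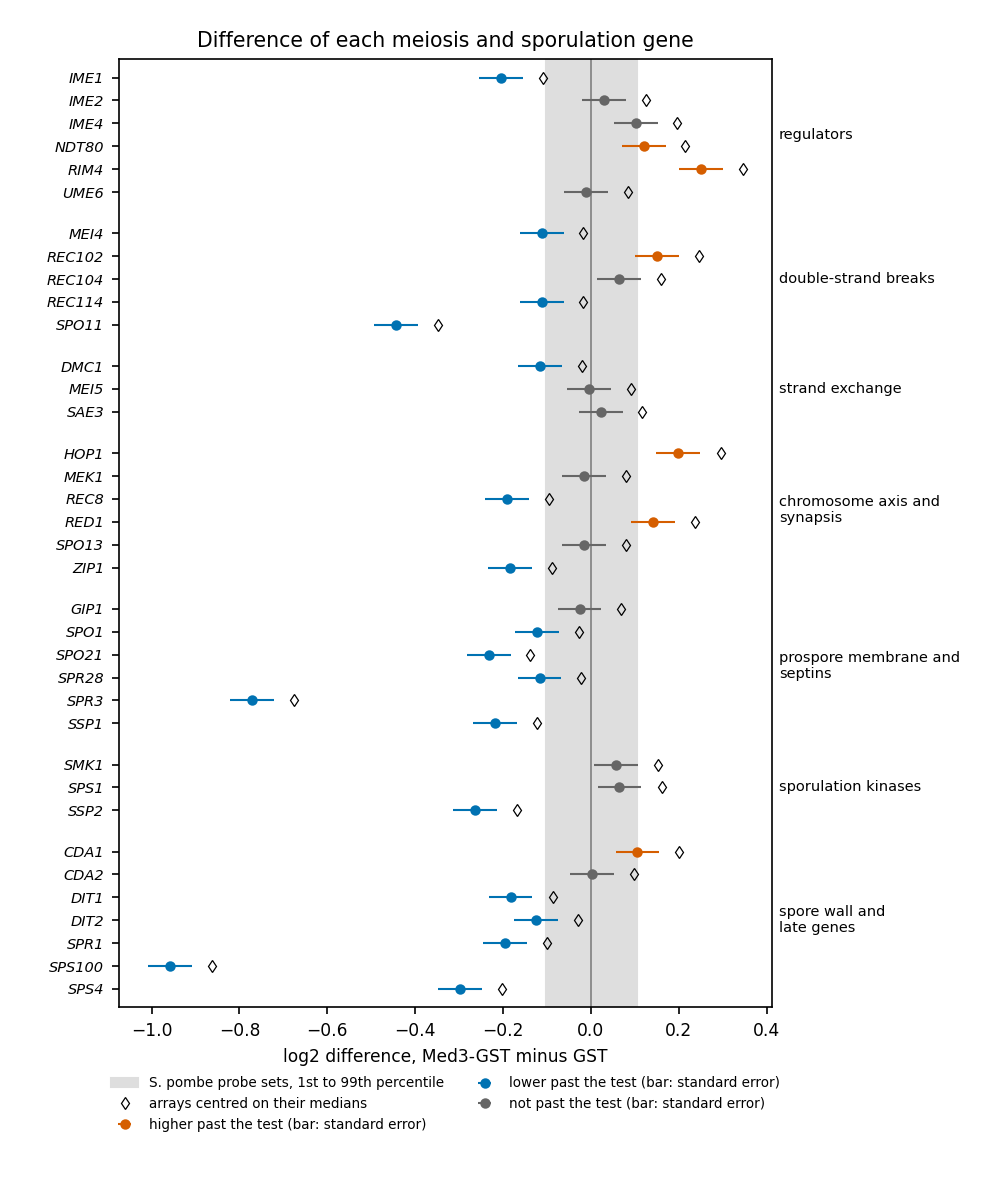
Log2 difference, Med3-GST minus GST, of each of the 36 genes (filled circles, with the standard error of 0.05 as a bar, 3 arrays a group), coloured by the result of the test. Open diamonds give the same difference once arrays were centred on their medians, and the grey band is the 1st to 99th percentile of the S. pombe differences (-0.10 to 0.11). The band is drawn without centring, which would move it to the right by as much as the diamonds. SPS100, SPR3 and SPO11 lie far left of the band under both scalings, and RIM4 lies farthest right.

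**Figure D3:**
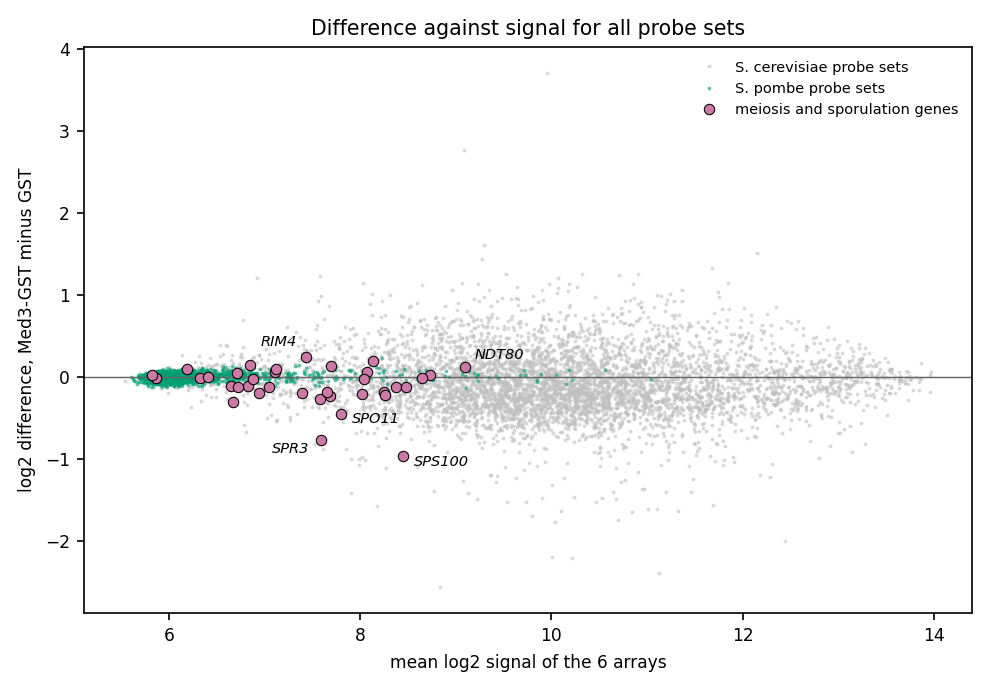
Log2 difference, Med3-GST minus GST, against the mean log2 signal of the 6 arrays for all S. cerevisiae probe sets (grey), those of S. pombe (green) and the 36 genes (pink). The 36 genes lie at mean signals from 5.83 to 9.10, where the S. pombe probe sets also lie, and their differences run from -0.96 to 0.25.

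The largest change among the 36 was in SPS100, a late gene whose product takes part in spore wall maturation. Its log2 signals were 9.01, 8.85 and 8.91 in cells with GST and 7.95, 7.94 and 8.00 with Med3-GST. All 3 arrays with GST were thus higher than all 3 with Med3-GST, and all 6 were above the S. pombe 95th percentile. SPS100 fell by 0.96 (8.92 ± 0.08 against 7.96 ± 0.04, SD, n = 3), which is 1.94-fold. Over 14 alternative fits its difference ran from -1.19 to -0.86.

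SPR3, which encodes a septin made only in sporulation and placed along the growing prospore membrane, came next. Its log2 signals were 7.96, 8.01 and 7.95 with GST and 7.25, 7.13 and 7.24 with Med3-GST. The groups did not overlap, and the Med3-GST arrays were all under the S. pombe 95th percentile. SPR3 fell by 0.77, or 1.71-fold. With the S. pombe median of each array subtracted first, the log2 difference was -1.19, so that its size depends on how background is removed.

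The third gene of this size was SPO11, which encodes the enzyme that makes the double-strand breaks of meiotic recombination. Its log2 signals were 8.06, 7.95 and 8.06 with GST and 7.52, 7.56 and 7.64 with Med3-GST. Every GST array was higher than every Med3-GST array by more than the spread within a group. SPO11 fell by 0.44, or 1.36-fold, and its difference ran from -0.63 to -0.35 over the alternative fits.

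These 3 genes have different neighbours on the chromosomes, taken in gene order from assembly R64. SPO11 lies in a row with NPR3 and RIM4, which were higher with Med3-GST by 0.16 and 0.25. The other neighbour of SPO11, AIM17, was lower by 1.08. Neither neighbour of SPR3 passed the test, with log2 differences of -0.08 for PEF1 and 0.03 for ERG25. The neighbour of SPS100 that was measured, YHR138C, fell by 0.51. Neighbours outside the 36 genes numbered 60 with a probe set, of which 33 were lower, 11 higher and 16 not past the test, against 47.8% lower and 27.1% higher on the whole array.

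Of the 6 regulators, 1 fell, 2 rose and 3 did not pass the test, where 47.8% of all probe sets were lower and 27.1% higher. With arrays centred 5 of the 6 were higher and 1 lower. IME1, which encodes the activator that starts meiosis, had log2 signals of 8.14, 8.08 and 8.16 with GST and 7.96, 7.87 and 7.94 with Med3-GST. The groups did not overlap, and IME1 fell by 0.20. The repressor gene UME6 had log2 signals of 8.73, 8.59 and 8.65 with GST and 8.69, 8.58 and 8.66 with Med3-GST. The replicates of UME6 spanned the same range in both groups, with a difference of -0.01 that became 0.08 and passed the test once arrays were centred.

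NDT80, the activator gene of the middle phase and the brightest of the 36, had log2 signals of 9.11, 8.97 and 9.05 with GST and 9.15, 9.13 and 9.20 with Med3-GST. The groups lay side by side without overlap, and NDT80 rose by 0.12. Its call was lost without replicate B or C of GST or A or C of Med3-GST (0.08 to 0.12) and with equal S. pombe medians, and centring raised the difference to 0.21. IME2, which encodes a protein kinase that acts downstream of Ime1, had log2 signals of 8.69, 8.74 and 8.72 with GST and 8.79, 8.64 and 8.80 with Med3-GST. Array B with Med3-GST was the lowest of all 6 for IME2, which did not pass the test (0.03).

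The largest increase among the 36 was in RIM4, which encodes an RNA-binding protein that holds back translation of mid-meiotic transcripts. Its log2 signals were 7.36, 7.30 and 7.27 with GST and 7.60, 7.53 and 7.56 with Med3-GST. The Med3-GST arrays all lay above the GST arrays, and RIM4 rose by 0.25, with values from 0.23 to 0.41 over the alternative fits. IME4, which encodes the methyltransferase that places N6-methyladenosine on mRNA in meiosis, was close to the S. pombe median, at 6.14 and 6.24, and did not pass the test (0.10), a call that held in 6 of 13 alternative fits.

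The genes that form the double-strand breaks moved in both directions, with 3 of 5 lower and 1 higher as deposited. The shares of all probe sets were 47.8% lower and 27.1% higher. With arrays centred 1 of the 5 was lower and 2 higher. Besides SPO11, the genes of its partner proteins MEI4 and REC114 were each lower by 0.11, and both were under the S. pombe 95th percentile in both groups. MEI4 is the only called gene of the 36 whose arrays overlapped between the groups. Both calls were lost with centred arrays (-0.02 each), with equal S. pombe medians and without replicate C of Med3-GST. That of MEI4 was also lost with background subtracted and without replicate A of GST (-0.06), and that of REC114 without replicate B or C of GST or A of Med3-GST. REC102, another partner of Spo11, was likewise under that percentile and rose by 0.15, from a mean log2 signal of 6.77 to 6.92. REC104, the brightest partner gene at 8.05 and 8.11, did not pass the test (0.06). For strand exchange, DMC1, the meiotic recombinase, fell by 0.12, from 8.43 to 8.32. Its call was lost with centred arrays (-0.02), with equal S. pombe medians, with background subtracted (-0.14) and without replicate A or C of GST or B of Med3-GST (-0.11 to -0.08). MEI5 and SAE3, whose products help to load Dmc1, were at or below the S. pombe median in both groups, with differences of -0.00 and 0.02 that did not pass the test.

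Genes of the chromosome axis and of synapsis also went both ways. HOP1, which encodes an axis protein that also serves the recombination checkpoint, had log2 signals of 8.07, 8.02 and 8.00 with GST and 8.29, 8.14 and 8.27 with Med3-GST. No array of HOP1 with GST reached the lowest with Med3-GST, and HOP1 rose by 0.20. RED1, the partner of Hop1 in the axis, rose by 0.14, from 7.62 to 7.76. MEK1, the kinase gene that acts with both, lay near background at 6.34 and 6.32 and did not pass the test (-0.01).

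By contrast ZIP1, which encodes a protein of the central region of the synaptonemal complex, fell by 0.18, from 8.34 to 8.16. REC8, the meiotic subunit of cohesin, fell by 0.19, from 7.48 to 7.29, and its means were under the S. pombe 95th percentile in both groups. With GST the REC8 mean was almost at that level (7.484 against 7.485), and array B was above it (7.51). SPO13, whose product keeps sister centromeres together in the first division, did not pass the test (-0.02). The axis and synapsis group thus held 2 genes higher, 2 lower and 2 that did not pass, where 47.8% of all probe sets were lower and 27.1% higher. The counts higher and lower were 2 and 2 with arrays centred as well.

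Of the 6 genes of the prospore membrane and its septins, 5 were lower and 1 did not pass the test, where 47.8% of all probe sets were lower. After SPR3, the largest were SPO21, which encodes a protein of the meiotic plaque on the spindle pole, and SSP1, a protein of the leading edge of the membrane. SPO21 fell by 0.23, from 7.80 to 7.57, and SSP1 fell by 0.22, from 8.37 to 8.15. SPO1, which encodes a phospholipase-like protein, fell by 0.12, from 8.54 to 8.42. SPR28, another sporulation septin, fell by 0.12 as well, from 7.10 to 6.99, under the S. pombe 95th percentile. The calls of SPO1 and SPR28 were lost with centred arrays (-0.03 and -0.02), with equal S. pombe medians and without replicate A or C of GST. Leaving out replicate B of Med3-GST also ended the call of SPO1, and leaving out A that of SPR28. GIP1, the gene of a subunit that directs the phosphatase Glc7 to the septins, did not pass the test (-0.03). Centring the arrays left 3 of the 6 genes lower and made 1 higher, and GIP1 then had a difference of 0.07.

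The sporulation kinase pathway that times spore wall assembly was read from 3 genes. Of these 1 was lower as deposited, where 47.8% of all probe sets were lower and 27.1% higher. With arrays centred 1 was lower and 2 higher. SSP2, whose product activates the kinase Smk1, had log2 signals of 7.70, 7.62 and 7.80 with GST and 7.45, 7.40 and 7.49 with Med3-GST. The groups did not overlap, with their means on either side of the S. pombe 95th percentile, and SSP2 fell by 0.26. SMK1 itself, a MAP kinase gene of the spore wall, had means of 6.69 and 6.74 and did not pass the test (0.06). SPS1, a kinase gene of the same steps, had means of 7.08 and 7.15 and did not pass it either (0.07).

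Among the 7 genes of the spore wall and late phase, 5 were lower, 1 higher and 1 did not pass, where 47.8% of all probe sets were lower and 27.1% higher. Next to SPS100, the largest difference was that of SPS4, a sporulation-induced gene, with log2 signals of 6.78, 6.81 and 6.87 with GST and 6.55, 6.47 and 6.56 with Med3-GST. All 6 arrays were under the S. pombe 95th percentile. SPS4 fell by 0.30, and by 0.85 once the S. pombe median was subtracted. SPR1, an exo-glucanase gene, fell by 0.20, from 7.04 to 6.85, under the S. pombe 95th percentile in both groups, and by 0.42 once the S. pombe median was subtracted.

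The dityrosine layer of the outer spore wall is made by the products of DIT1 and DIT2, which are neighbours on the chromosome. DIT1 fell by 0.18, from 7.74 to 7.56, and DIT2 fell by 0.12, from 6.79 to 6.66. DIT2 was under the S. pombe 95th percentile in both groups, its difference was -0.32 with background subtracted, and its call was lost with centred arrays (-0.03), with equal S. pombe medians and without replicate C of GST or A of Med3-GST. The chitosan layer below it needs the chitin deacetylases of CDA1 and CDA2. CDA1 rose by 0.11, from 7.07 to 7.17, under the S. pombe 95th percentile in both groups. Its call was lost with equal S. pombe medians and without replicate A or C of either group (0.08 to 0.12). CDA2 did not pass the test, with means of 6.41 in both groups. With centred arrays 4 of the 7 late genes were lower and 2 higher.

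The counts were compared between genes above and below background. Of the 16 genes above the S. pombe 95th percentile in both groups, 9 were lower, 3 higher and 4 did not pass the test, with a median difference of -0.12. Of the 17 genes above it in neither group, 7 were lower, 2 higher and 8 did not pass, with a median of -0.01. As shares, 56.25% of the first set were lower and 18.75% higher, and 41.2% and 11.8% of the second. Among all probe sets 47.8% were lower and 27.1% higher. With arrays centred the first set held 7 genes lower and 7 higher, and the second 3 lower and 7 higher. The centred counts over all 5498 probe sets were 2293 lower and 2395 higher. A fit without probe sets that were dim in both groups tested 19 of the 36 genes and called 11 lower and 4 higher, and all 19 kept their call. A set of 16 genes kept their direction and stayed past the test in every alternative fit that tested them, which were 13 or 14 fits a gene. Of these 12 were lower, namely SPS100, SPR3, SPO11, SPS4, SSP2, SPO21, SSP1, IME1, SPR1, REC8, ZIP1 and DIT1. The 4 higher were RIM4, HOP1, REC102 and RED1.

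Other genes of the same processes were described from 3 further lists, whose counts stand against 47.8% lower and 27.1% higher among all probe sets. As shares, 58.3% of the further regulators were lower and 12.5% higher, 32.1% and 28.6% of the recombination list, and 42.9% and 22.9% of the prospore membrane list. Of 24 further regulators of entry into meiosis, 14 were lower, 3 higher and 7 did not pass the test, with a median difference of -0.16. The largest was RME1, the gene of a haploid repressor of IME1, whose log2 signals were 12.01, 11.88 and 12.01 with GST and 11.11, 11.06 and 11.16 with Med3-GST. RME1 was thus far brighter than background on all 6 arrays and fell by 0.86, and IME1 was lower as well. RIM20, of the Rim101 processing pathway, fell by 0.49, and RIM15, a kinase gene of nutrient limitation, fell by 0.39. HST1, whose deacetylase works with Sum1 to repress middle genes, rose by 0.44. In contrast SUM1 itself fell by 0.19, and RFM1 of the same list fell by 0.23.

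Of 28 further genes of recombination and synapsis, 9 were lower, 8 higher and 11 did not pass the test, with a median of -0.03. The largest increase was that of MND2, a subunit gene of the anaphase-promoting complex, which rose by 0.61, from 7.53 to 8.14. RAD52, a recombination gene also used in mitotic repair, rose by 0.53, from 8.63 to 9.16. XRS2, of the complex that processes broken ends, fell by 0.52, and ZIP2, which starts synapsis, fell by 0.45. SPO22, another synapsis gene, lies next to HOP1 and rose by 0.21, close to the value of HOP1.

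Of 35 further genes of the prospore membrane and spore wall, 15 were lower, 8 higher and 12 did not pass the test, with a median of -0.06. ADY3, of the leading edge and the spindle pole, fell by 0.60. SPO14, a phospholipase D gene needed for the prospore membrane, fell by 0.59. RRT8, a gene of the lipid droplets that serve the spore wall, fell by 0.58, and DON1, of the leading edge, fell by 0.41. With arrays centred, the counts lower and higher were 12 and 8 for the regulators, 7 and 14 for recombination and 11 and 16 for the prospore membrane list. The same scaling changed the array-wide counts to 2293 lower and 2395 higher.

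**Figure D4:**
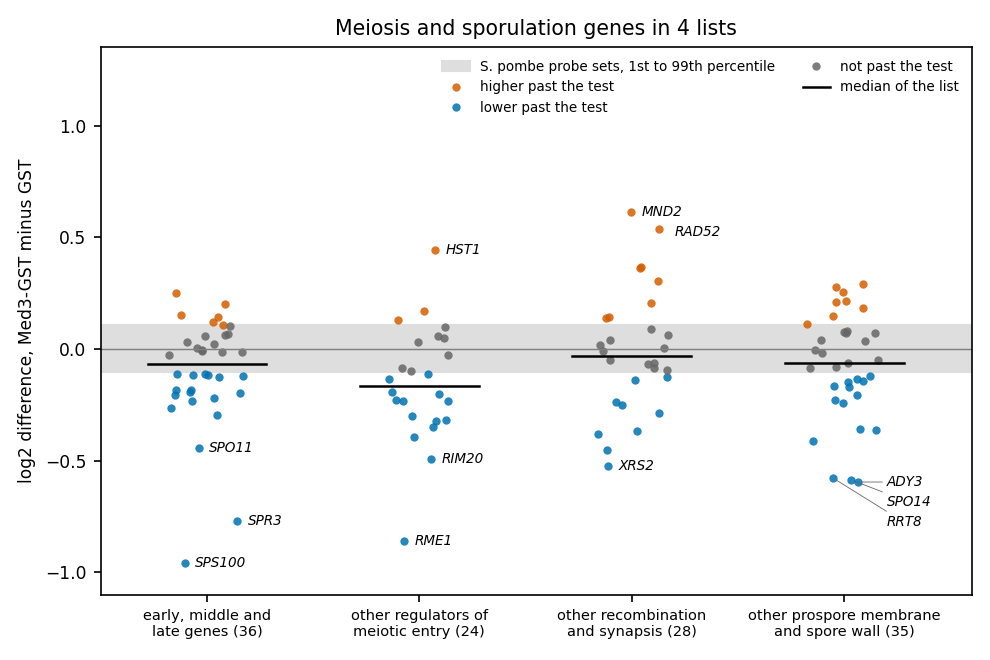
Log2 difference, Med3-GST minus GST, of the 36 genes and of 3 further lists of 24, 28 and 35 genes, with 1 point per gene coloured by the result of the test and spread sideways for legibility. Black bars are the medians (-0.07, -0.16, -0.03 and -0.06), the grey band is the 1st to 99th percentile of the S. pombe differences, and the 3 genes with the largest differences in each list are named.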

How the data were processed

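The authors hybridized total RNA of 6 cultures to 1 array each and deposited 1 log10 signal per probe set and array. Base 10 follows from the values themselves, as its powers had at most 2 decimals in 100% of cells. They state a normalization within each experiment in ArrayStar. Its kind, the background correction and the probe summary were not given in the sources used here. Values were converted to log2 and not scaled further. Of 10928 probe sets, 5498 S. cerevisiae probe sets were tested and 1746 S. pombe probe sets gave the background. The other 3684, among them 1 that lists several genes, were not used.

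Med3-GST was set against GST by lmFit and eBayes of limma 3.58.1 under R 4.3.3, two-sided, with p-values adjusted by Benjamini-Hochberg over all 5498 probe sets. limma estimated the same standard error of 0.05 for every probe set. A call in this fit was thus a cutoff on the size of the difference, the smallest past the test being 0.10. A gene's own replicate spread did not enter its call beyond that common estimate. With 3 arrays a group an exact permutation test has no p small enough and was not run, and precision is limited by the number of arrays. The fit was also run on simulated arrays with known changes. These held no overall shift between the groups, so that run does not bear on scaling or pairing. The brightest probe set stood for a gene with several.

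The members and lists were chosen with earlier results of these data known. Values on every array were given for members past the test with a difference of at least 0.3 in a gene above the S. pombe 95th percentile, for IME1, UME6, NDT80 and IME2, and for the 3 brightest members, and in each further list up to 4 called genes with the largest differences were named. Array values of RIM4, HOP1, SSP2, SPS4 and RME1, the neighbouring genes, SPO22, SUM1 and RFM1 were chosen after their values were seen. A further list of 30 recombination genes was used with 28 of them. Alternatives changed scaling, variance model, background, dim probe sets, the replicate block and single arrays.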

Additional observations from a re-analysis of the deposited data

How the results depend on the processing

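Of the 24 called genes, 16 kept their direction and call in every alternative fit that tested them (13 or 14 fits). The count of genes higher, 6 as deposited, was 15 with each array centred on its median, 9 after quantile normalization, 7 with either variance trend, 6 with the S. pombe median subtracted and 4 to 10 when 1 array was left out, with 10 without replicate B of Med3-GST. The count of genes lower, 18 as deposited, was 12, 18, 18, 16 and 13 to 17 in the same settings. With dim probe sets left out it was 11. That fit tested 19 of the 36 genes, left their differences as they were and changed no call among them. Shifting arrays to equal S. pombe medians, an alternative chosen after seeing the data, gave 4 higher and 12 lower. Counting a gene by the mean of its probe sets changes nothing, since each gene had 1. Centring turned the sign of 5 genes that did not pass the test as deposited, of which GIP1 (0.069) and UME6 (0.084) then passed and MEI5 (0.09), MEK1 (0.08) and SPO13 (0.08) did not. At the S. pombe 99th percentile 0 genes with GST and 0 with Med3-GST were above background. Where the cause of such a move is not given by the setting itself, the cause was not tested.

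Whether replicate letters pair the arrays was not settled. Deviations of same-lettered arrays correlated weakly across probe sets, at 0.04, 0.03 and 0.06, although each array correlated best with its own letter. These correlations cannot show a shift of a whole array. The S. cerevisiae median was lowest for replicate B in both groups, at 9.99 with GST and 9.87 with Med3-GST. With a replicate block the median standard error was 0.033, against 0.05 without it. A replicate block gave 7 genes higher and 18 lower among the 36, and 1711 higher and 2869 lower among all probe sets, against 1488 and 2629 without it.

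The sizes depended on background subtraction and on scaling. Subtracting the S. pombe median moved the differences of 12 called genes by more than 1.5 times, and centring those of 18.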
